A study of Mus musculus with 18 samples.

Results

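The effect of Igf1 loss that the young and the adult mouse vestibular organ have in common was measured as the mean of 2 differences, Igf1 -/- minus Igf1 +/+ arrays at P15 and at P90. Stage was a blocking factor, so 6 null arrays were set against 6 wild type arrays, 12 of the 18 in the series. The genes of interest were those that differed in the same direction at both stages, which were 10016 of 19106 autosomal genes tested (52.4%). Of these, 5691 were higher in null arrays at both stages (29.8% of genes) and 4325 lower (22.6%). Across genes the P15 and P90 differences had a Pearson r of 0.134 and a Spearman rho of 0.0715, as a description, since genes are not independent replicates.

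The groups were P15 null, P15 wild type, P90 null and P90 wild type, with 3 arrays each, at 15 and 90 days after birth. A further 3 null and 3 wild type arrays of E18.5 embryos served to ask whether a postnatal difference was already there before birth. All mice had a hybrid background of MF1 and 129/sv and were perfused with paraformaldehyde before the inner ear was taken out. The labels call the arrays biological replicates and do not say how many animals each holds, so p-values measure the spread between arrays. In 6 postnatal wild type samples, all 3 of P15 and all 3 of P90, the description field names the null genotype, whereas title, source and genotype fields say Igf1 +/+, and the titles were followed. Values are log intensities of unstated base after quantile normalization, and a step of 1 log unit means 2.72-fold for natural logs and 2-fold for log2.

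IGF1 is a peptide growth factor that signals through the receptor tyrosine kinase Igf1r to the insulin receptor substrates and the PI3K-AKT and MAPK pathways, and its availability is set by binding proteins and the proteases that cleave them. The vestibular organ holds sensory hair cells, supporting cells, the otoconial and gelatinous membranes above them, ion-transporting dark cells, melanocytes and otic fibrocytes, inside a bony capsule whose marrow makes blood cells. IGF1 is known to support growth of bone, muscle and the inner ear, and expansion of blood cell precursors including those of the B lineage.

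The tissue label was checked first. Hair cell genes averaged between 4.16 and 4.51 log units in the postnatal arrays, above the level of 3.39 used here to mark dim genes. Of 33 measured hair cell genes 2 were dim, beside 19.4% of all genes tested. Genes of skeletal muscle (5.32 to 6.68) and the erythroid lineage (4.88 to 6.38) were also above the dim level. So were those of the B lineage (3.75 to 5.42) and of central neurons and glia (6.03 to 6.39). The arrays may thus hold RNA of tissue around the sensory organ. The list of T and NK cell genes (3.4 to 3.74) lay above the dim level too. Most genes tested do, so it is a weak check of which tissues the arrays hold. Sex-linked genes differed between the groups at P90. Xist, expressed from the inactive X chromosome of females, read 7.91, 7.43 and 7.42 in P90 null arrays, against 3.33, 2.87 and 1.86 in P90 wild type arrays. The mean of 3 Y-linked genes was 2, 5.44 and 5.49 in the same null arrays, against 6.12, 6.12 and 6.32. At P15 Xist spread widely in both genotypes, with 7.61, 8.09 and 4.09 in null arrays and 7.48, 5.34 and 7.48 in wild type arrays. The Y-linked mean at P15 was 5.69, 3.29 and 6.31 in null arrays and 5.56, 6.19 and 5.9 in wild type arrays. Several arrays, among them P90 null replicates 2 and 3 and every E18.5 array, had both high Xist and Y-linked signal. Such arrays cannot be called male or female. The genotype effect at P90 and the sex signal therefore cannot be told apart within that stage, and for most genes and lists the P15 difference is given beside the mean.

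Igf1 itself, on chromosome 10, read 5.54, 5.69 and 5.42 in P15 null arrays, against 5.87, 6.11 and 5.89 in P15 wild type arrays. At P90 it read 5.43, 5.51 and 5.31 in null arrays and 5.63, 5.39 and 5.56 in wild type arrays. The groups did not overlap at P15 and overlapped at P90. At E18.5 Igf1 read 6.4, 6.88 and 6.51 in null arrays, against 7.02, 7.07 and 6.98 in wild type arrays. That difference was -0.43, without overlap. The mean postnatal difference was -0.26 ± 0.08 (SE), with an adjusted p of 0.27 by limma. A single probe set stands for the gene, and the labels do not say whether its probes lie in the deleted part, so it does not check the genotype labels.

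With the additive model in limma and Benjamini-Hochberg adjustment over all autosomal genes, 1 gene passed an adjusted p of 0.05 with the same sign at both stages. This was Spib, lower in null arrays (0.00523% of genes tested), and 0 genes passed as higher (0%). At an unadjusted p under 0.05 the counts were 1064 higher (5.57% of genes) and 870 lower (4.55%). The 14 genes that follow Spib share an adjusted p of 0.0632, just outside the threshold, and 5 of them were higher in null arrays. A fit with a mean per genotype and stage on all 18 arrays, which adds the E18.5 arrays to the estimate of spread, put 77 genes higher (0.403%) and 34 lower (0.178%) with the same sign at both stages. A mean per genotype and stage on the 12 postnatal arrays gave 16 higher (0.0837%) and 12 lower (0.0628%). How the count splits by direction changed with the scaling, at 2 higher and 7 lower with array medians subtracted and 14 higher and 5 lower with values as deposited. Null arrays lay above wild type arrays with no overlap at both stages for 198 genes (1.04%) and below them for 137 (0.717%), whereas 96 genes (0.502%) lay above at 1 stage and below at the other. Below, a gene is said to have passed in the fit of all 18 arrays only where that fit is named. Most single genes named below were picked by a small p in these same arrays. Their sizes and lack of overlap follow in part from that choice. Outside the IGF system, the list members named are extremes and not typical of their lists.

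**Figure D1:**
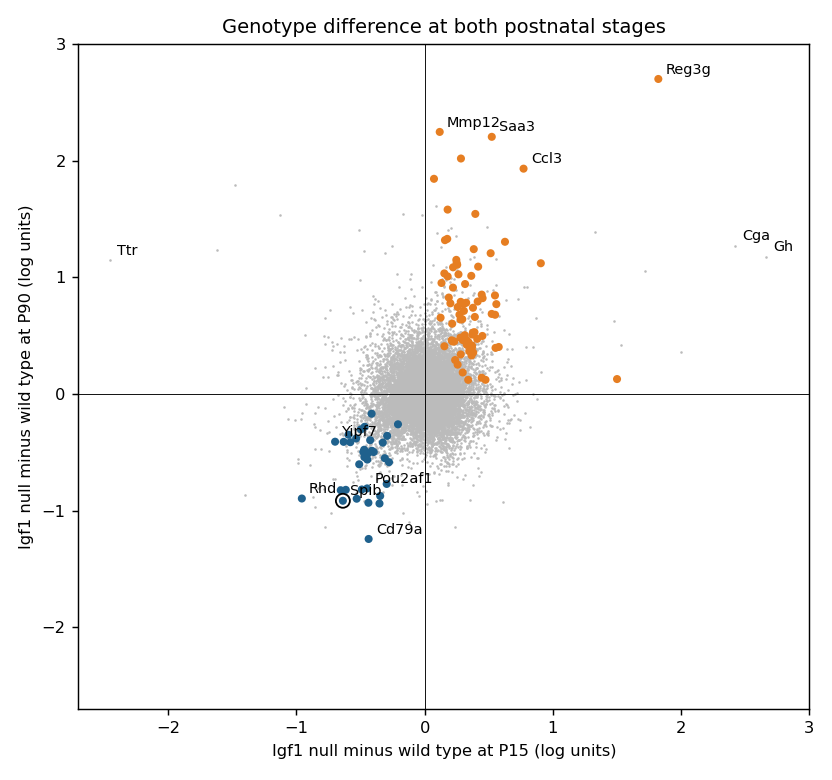
Difference of Igf1 null minus wild type arrays at P15 (x axis) and P90 (y axis), in log units, for 19106 autosomal genes, 1 point each. Coloured points are the 77 higher (orange) and 34 lower (blue) genes of the fit of all 18 arrays, and the circle marks Spib, at -0.64 at P15 and -0.92 at P90.

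Spib encodes an ETS family DNA-binding protein that acts in B cells and in plasmacytoid dendritic cells. It read 5.19, 5.15 and 5.12 in P15 null arrays, against 5.96, 5.66 and 5.76 in P15 wild type arrays. At P90 it read 3.09, 3.43 and 3.28 in null arrays, against 4.21, 4.10 and 4.24 in wild type arrays. The groups did not overlap at either stage, and the level was lower at P90 than at P15 in both genotypes. Spib fell by 0.78 log units (SE 0.08, adjusted p 0.00864, limma). Its P90 null mean, 3.27, was below the dim level of 3.39, so no fold is given. Leaving out each array in turn kept the adjusted p between 0.00677 and 0.0478. At P15 the null array with low Xist (4.09) had Spib at 5.12 and the null array with the highest Xist (8.09) had it at 5.15. With a sex score (Xist minus the mean of 3 Y-linked genes) as a covariate the difference was -0.70, and the adjusted p of 0.174 no longer passed.

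**Figure D2:**
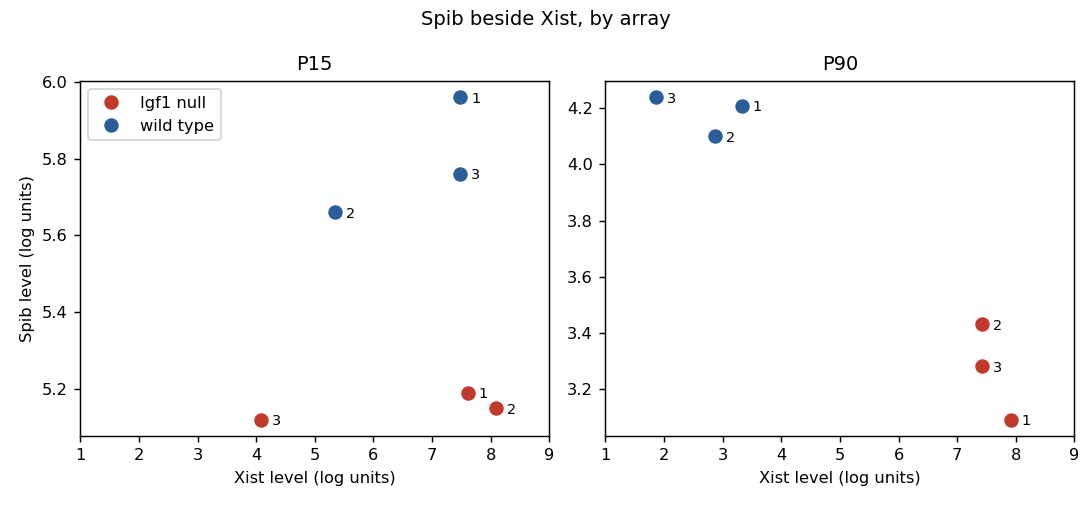
Level of Spib (y axis) against level of Xist (x axis), both in log units, for each array at P15 (left) and P90 (right), with Igf1 null arrays in red and wild type arrays in blue, numbered by replicate. At P15 null and wild type arrays share a range of Xist and differ in Spib, and at P90 every null array has Xist at 7.42 or above and every wild type array at 3.33 or below.

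Other B lineage genes differed in the same direction. The list of B cell genes had 27 measured members, with a median difference of -0.47 (-0.35 at P15, -0.49 at P90), beside 0.01 over all genes tested. Of the 27, 24 were lower at both stages (beside 22.6% of all genes), 0 higher at both, and 3 differed in sign. At an unadjusted p under 0.05, 22 were lower, beside 4.55% of all genes, and besides Spib none passed adjustment. In the fit of all 18 arrays 10 were lower, beside 0.178% of all genes. The list's mean level was 4.92, 4.99 and 5.09 in P15 null arrays, against 5.29, 5.32 and 5.42 in P15 wild type arrays, and 3.75, 3.79 and 4.07 in P90 null arrays, against 4.37, 4.45 and 4.46 in P90 wild type arrays, values sorted within each group. These did not overlap at either stage. The median with the sex score as a covariate was -0.43, and it ran from -0.52 to -0.44 over the 12 fits that leave out 1 array. In these bulk samples, fewer cells of a lineage and less RNA per cell cannot be told apart.

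Pou2af1 encodes OCA-B, a coactivator that works with octamer-binding factors at B cell promoters. It read 5.87, 5.72 and 5.62 in P15 null arrays, against 6.35, 6.11 and 6.11 in P15 wild type arrays. The P90 levels were 4.34, 4.41 and 4.24 in null arrays and 5.21, 5.20 and 5.01 in wild type arrays. There was no overlap at either stage, and the difference of -0.63 ± 0.09 had an adjusted p of 0.0632, and of 0.00737 in the fit of all 18 arrays. Cd79b, a signalling chain of the B cell receptor, read 6.13, 5.97 and 5.92 in P15 null arrays, against 6.61, 6.39 and 6.33 in P15 wild type arrays. At P90 Cd79b read 4.51, 4.78 and 4.54 in null arrays, against 5.75, 5.58 and 5.31 in wild type arrays. Its groups did not overlap either, with a difference of -0.69 ± 0.11 (adjusted p 0.0632, and 0.00363 in the fit of all 18 arrays).

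The recombinase gene Rag2, active while B and T cell precursors rearrange their receptor genes, differed by -0.51 ± 0.08. Its levels were 3.66, 3.55 and 3.70 in P15 null arrays and 4.17, 3.99 and 4.10 in P15 wild type arrays, and at P90 1.59, 1.66 and 1.86 in null arrays and 2.46, 2.00 and 2.33 in wild type arrays. The P90 values lie below the dim level in both genotypes. Niban3, a gene expressed in B cells, differed by -0.51 ± 0.08, at -0.47 at P15 and -0.54 at P90, without overlap. Further B lineage genes, chosen after their values were seen, were the master regulator Pax5 (-0.65, and -0.35 at P15), the partner recombinase Rag1 (-0.53, and -0.30 at P15), the surrogate light chain gene Igll1 (-0.65, and -0.49 at P15) and its relative Vpreb3 (-0.52, and -0.63 at P15), the Fc receptor-like gene Fcrla (-0.61, and -0.35 at P15) and the receptor chain Cd79a (-0.84, and -0.44 at P15). The P90 null mean of Cd79a, 2.89, was below the dim level. All 6 were lower at both stages and in the fit of all 18 arrays had adjusted p-values between 0.0119 for Fcrla and 0.0446 for Cd79a. Rag1 and Igll1 overlapped between the groups at P15, and Vpreb3 at P90.

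Promoter sequences of 2 of these genes are shown because Spib is the gene that passed, and because OCA-B acts through the octamer, whose core lies in the Vpreb3 window. Each window holds 300 bases, mostly upstream of the transcription start, from RefSeq on GRCm38.p6, and capitals mark the octamer core TTTGCAT, which was searched on both strands. Spib lies at chr7:44532022-44532321 on the minus strand and Vpreb3 at chr10:75948050-75948349 on the plus strand.
Spib: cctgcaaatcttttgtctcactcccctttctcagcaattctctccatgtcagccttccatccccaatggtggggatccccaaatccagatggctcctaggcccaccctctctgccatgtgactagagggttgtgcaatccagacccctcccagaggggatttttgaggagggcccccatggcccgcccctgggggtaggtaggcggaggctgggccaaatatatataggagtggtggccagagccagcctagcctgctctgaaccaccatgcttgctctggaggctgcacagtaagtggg
Vpreb3: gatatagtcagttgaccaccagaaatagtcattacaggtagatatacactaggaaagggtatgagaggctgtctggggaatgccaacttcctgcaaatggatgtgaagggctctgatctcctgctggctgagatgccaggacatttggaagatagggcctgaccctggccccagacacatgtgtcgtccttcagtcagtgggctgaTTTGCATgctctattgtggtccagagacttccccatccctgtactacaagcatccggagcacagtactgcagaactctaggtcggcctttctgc
The octamer core was in 2 of 24 promoter windows of the B cell list (8.33%), beside 4.18% of the windows of all genes tested. The core GAGGAAG, which PU.1 and Spi-B recognise, was searched likewise and was in 4 of the 24 (16.7%), beside 13% of the windows of all genes tested. Neither was found in the Spib window, and the motifs did not overlap each other in the windows printed. A match of letters is a description and not a binding site.

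Other leading lower genes are known from macrophages and dividing cells. Spic, on the same chromosome as Igf1, encodes an ETS factor of red pulp and marrow macrophages that recycle iron. It read 3.40, 3.39 and 3.32 in P15 null arrays, against 3.84, 4.04 and 4.07 in P15 wild type arrays. At P90 Spic read 2.67, 2.93 and 2.26 in null arrays, against 3.66, 3.15 and 3.51 in wild type arrays. The groups did not overlap, and the difference was -0.72 ± 0.12 (adjusted p 0.0632), with null means below the dim level at both stages. Timd4, a phosphatidylserine receptor of resident macrophages that take up dying cells, differed by -0.49 ± 0.07. Its levels were 3.68, 3.86 and 3.91 in P15 null arrays and 4.27, 4.24 and 4.38 in P15 wild type arrays, and 3.65, 3.83 and 3.59 in P90 null arrays and 4.34, 4.18 and 4.04 in P90 wild type arrays. Unlike the B lineage genes above, Timd4 had nearly the same level at both stages within each genotype. The scavenger receptor Cd163 (-0.38, and -0.38 at P15) and the ficolin gene Fcna (-0.71, and -0.53 at P15), a macrophage lectin that starts complement, were also lower without overlap at both stages. The macrophage list as a whole did not lean one way, with a median of -0.01 over 17 genes, of which 3 were higher at both stages, 4 lower and 10 of differing sign.

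Among granulocyte genes, 15 of 21 were lower at both stages and 0 higher, beside 22.6% and 29.8% of all genes, with a median of -0.21 (-0.27 at P15). At an unadjusted p under 0.05, 2 were lower, beside 4.55% of all genes, and 0 passed adjustment or the fit of all 18 arrays. Il5ra, the interleukin 5 receptor gene of eosinophils and B-1 cells, differed by -0.50 ± 0.08 but was dim in every group. It was also lower by a similar amount at E18.5 (-0.55). The eosinophil genes Ccr3, an eotaxin receptor, and Siglecf, an inhibitory lectin, were picked after their values were seen and differed by -0.74 (-0.65 at P15) and -0.33 (-0.22 at P15), without overlap at either stage. Genes of T and NK cells had a median of 0.00 over 18 genes, of which 7 were dim.

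**Figure D3:**
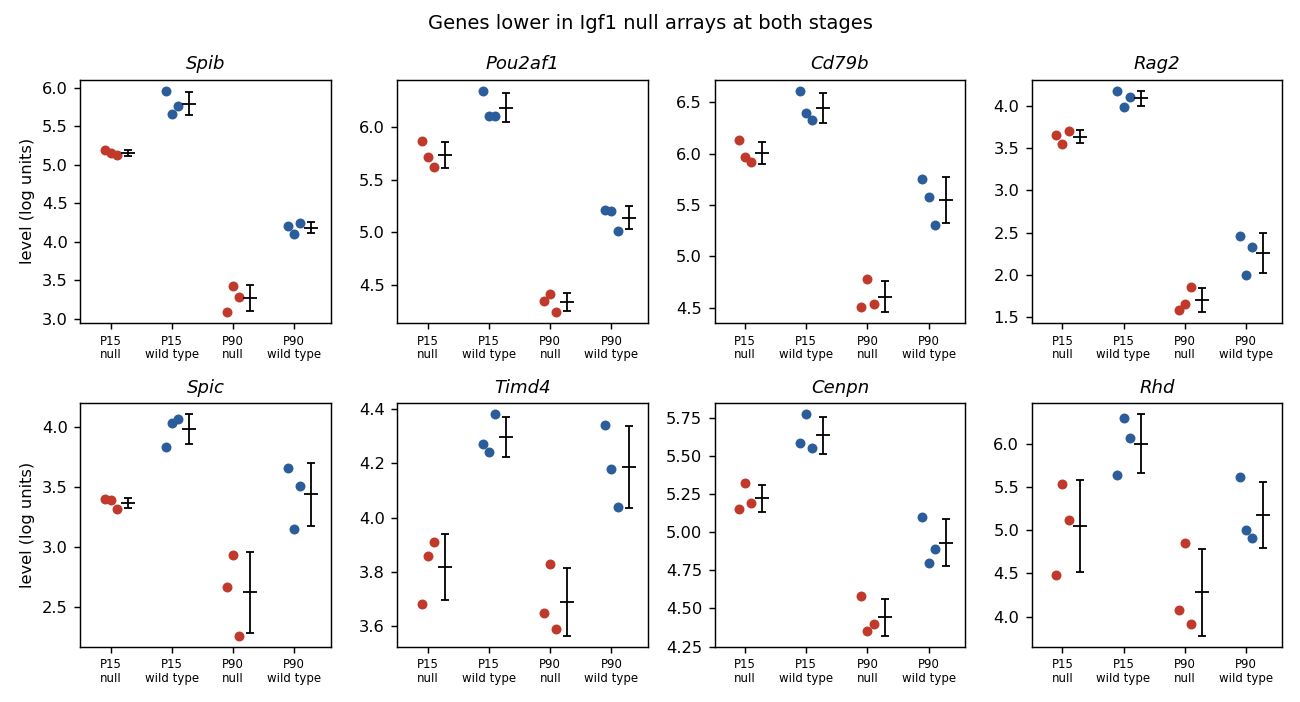
Levels of 8 genes lower in Igf1 null arrays at both stages, in log units (y axis), by group (x axis, null in red and wild type in blue). Points are arrays, and the black bar and whiskers are the group mean and SD (n = 3). For none of the 8 do null and wild type arrays overlap at P15 or at P90. The 8 were picked by small p in these same arrays, which favours lack of overlap.

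All 16 measured erythroid genes were lower at both stages and all 16 had an unadjusted p under 0.05, beside 22.6% and 4.55% of all genes. Their median was -0.70 (-0.58 at P15, -0.83 at P90). None passed adjustment, and 1 was lower in the fit of all 18 arrays, beside 0.178% of all genes. That gene was Rhd, which encodes a red cell membrane protein of the Rh complex, and it differed by -0.93 ± 0.21 (adjusted p 0.0489 in that fit). Rhd read 4.48, 5.54 and 5.12 in P15 null arrays, against 5.64, 6.31 and 6.07 in P15 wild type arrays, and 4.08, 4.85 and 3.91 in P90 null arrays, against 5.62, 5.0 and 4.91 in P90 wild type arrays. The highest null array came close to the lowest wild type array at both stages. Slc4a1, the red cell anion exchanger, differed by -0.91 ± 0.20 (-0.85 at P15), and Trim10, needed for terminal red cell differentiation, by -0.96 ± 0.21 (-0.78 at P15). The spread within groups was wide, with the list's mean level running from 5.39 to 5.85 in P15 null arrays and 5.91 to 6.38 in P15 wild type arrays, and from 4.88 to 5.55 in P90 null arrays and 5.66 to 6.34 in P90 wild type arrays. The list's median was -0.64 with the sex score as a covariate and ran from -0.81 to -0.56 when 1 array was left out.

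Cell cycle genes were lower too. All 34 measured members were lower at both stages, 26 had an unadjusted p under 0.05, and 2 passed in the fit of all 18 arrays. The shares of all genes were 22.6%, 4.55% and 0.178%. The list's median was -0.40 (-0.36 at P15, -0.44 at P90). Cenpn, which encodes a kinetochore protein, read 5.15, 5.32 and 5.19 in P15 null arrays, against 5.58, 5.77 and 5.55 in P15 wild type arrays. At P90 Cenpn read 4.58, 4.35 and 4.40 in null arrays, against 5.10, 4.80 and 4.89 in wild type arrays. It did not overlap between genotypes and differed by -0.45 ± 0.07 (adjusted p 0.0632, and 0.00737 in the fit of all 18 arrays). Mcm2, a subunit of the replicative helicase, and Aurka, a mitotic kinase, each differed by -0.48, with SE of 0.11 and 0.12, and by -0.44 and -0.47 at P15. The list's mean level did not separate the genotypes at P90, at 4.34, 4.88 and 4.95 in null arrays and 4.89, 5.02 and 5.47 in wild type arrays. Leaving out 1 array moved the list's median between -0.46 and -0.28. The list was lower in the same groups as the B cell and erythroid lists, and whether these transcripts come from blood cell precursors was not tested.

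The skeletal muscle list had a negative median after birth and a positive one before it. Of 39 measured genes, 36 were lower at both postnatal stages and 28 had an unadjusted p under 0.05, beside 22.6% and 4.55% of all genes. The median was -0.34 (-0.48 at P15, -0.19 at P90). None of the 39 passed adjustment or the fit of all 18 arrays, and the list's mean level overlapped at P90, at 6.29 to 6.56 in null arrays and 6.45 to 6.68 in wild type arrays. At E18.5 the same list had a median of 0.66. The contrast of the postnatal mean difference minus the E18.5 difference, tested on all 18 arrays, put 18 of the 39 genes lower, beside 0.387% of all genes lower and 0.131% higher in that contrast. Actn3, the alpha-actinin of fast fibres, read 6.08, 6.03 and 5.44 in P15 null arrays, against 6.73, 6.57 and 6.80 in P15 wild type arrays. At P90 it read 6.99, 7.03 and 7.21 in null arrays, against 7.33, 7.16 and 7.59 in wild type arrays. At E18.5, in contrast, it read 6.21, 6.6 and 6.32 in null arrays, against 5.04, 5.55 and 5.46 in wild type arrays. Null and wild type arrays of Actn3 overlapped at P90. Its postnatal mean difference was -0.57 ± 0.14, and the contrast with E18.5 was -1.59 (adjusted p 0.00773). Yipf7, which encodes a membrane protein of the Yip1 family, was among the 10 lower genes with the smallest p, with a postnatal difference of -0.55 ± 0.09, an E18.5 difference of 0.76 and a contrast of -1.32 (adjusted p 0.00766). Casq1, the calcium store protein of fast fibres, and Myoz1, a Z-disc protein, had contrasts of -1.46 and -1.23. How much muscle was dissected with each ear is not given in the labels, and its part in these values was not tested.

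**Figure D4:**
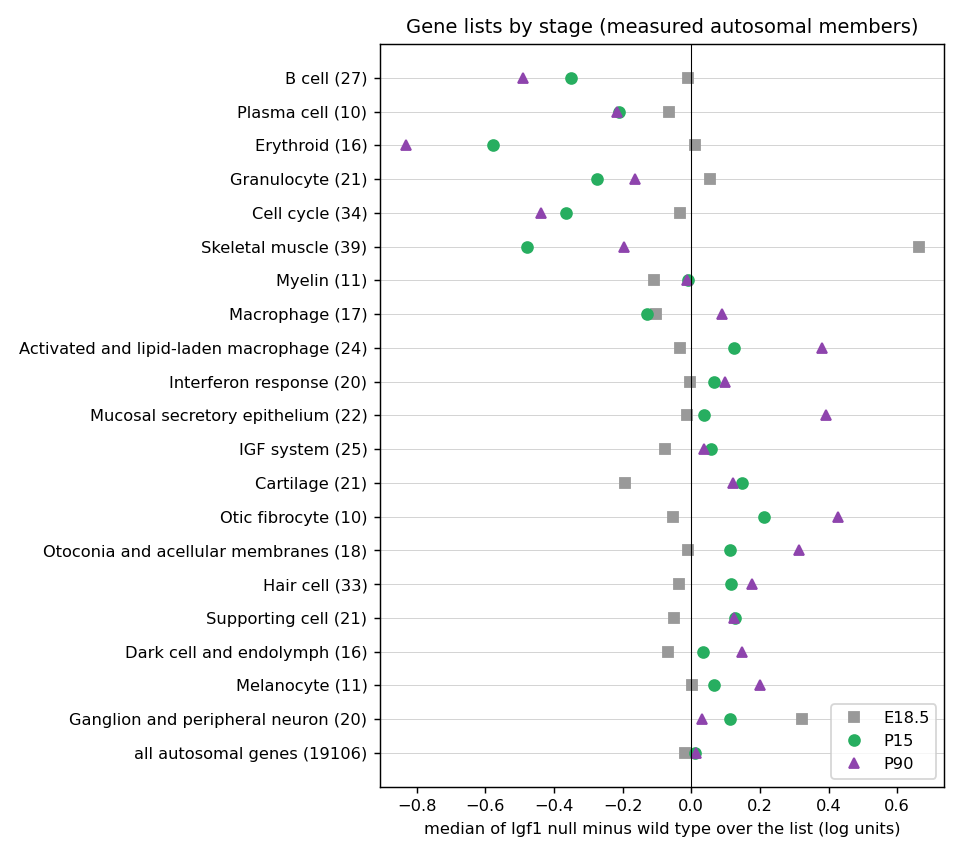
Median difference of Igf1 null minus wild type (x axis, log units) over the measured autosomal members of 20 gene lists and over all autosomal genes (y axis, number of genes in brackets), at E18.5 (grey squares), P15 (green circles) and P90 (purple triangles). The B cell, erythroid and cell cycle lists are below -0.3 at both postnatal stages and near 0 at E18.5, and the skeletal muscle list is at 0.66 at E18.5 and below 0 after birth. The B cell list averaged only 3.33 to 3.45 log units over the E18.5 arrays, where a difference would be hard to see.

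Within the IGF system the receptor gene had the smallest p. Igf1r, on chromosome 7, read 6.32, 6.19 and 6.32 in P15 null arrays, against 5.99, 5.82 and 5.92 in P15 wild type arrays. At P90 it read 6.26, 6.38 and 6.29 in null arrays, against 6.05, 5.97 and 5.92 in wild type arrays. The 6 null arrays all lay above the 6 wild type arrays, and the difference was close at both stages (0.37 at P15, 0.33 at P90) and 0.02 at E18.5. The mean difference was 0.35 ± 0.05, or 1.42-fold for natural logs and 1.27-fold for log2, with an adjusted p of 0.0632, and of 0.0114 in the fit of all 18 arrays. With the sex score as a covariate it was 0.37. The contrast with E18.5 was 0.32 (adjusted p 0.132) and did not pass.

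Of the 25 measured IGF system genes, 14 were higher at both postnatal stages, 7 lower and 4 of differing sign, with a median of 0.07 (0.06 at P15). The shares of all genes were 29.8% higher and 22.6% lower. At an unadjusted p under 0.05, 8 were higher and 2 lower, beside 5.57% and 4.55% of all genes. In the fit of all 18 arrays 2 were higher, beside 0.403% of all genes, and Igf1r was 1 of them. Pappa2, a metalloproteinase that frees IGF from Igfbp3 and Igfbp5, was the other gene higher in the fit of all 18 arrays (adjusted p 0.0281). It read 3.98, 3.87 and 3.68 in P15 null arrays, against 3.37, 3.46 and 3.45 in P15 wild type arrays, and 4.95, 4.29 and 4.20 in P90 null arrays, against 3.63, 3.47 and 3.95 in P90 wild type arrays. Its difference was 0.60 ± 0.14 without overlap, and 0.39 with the sex score as a covariate. The related protease Pappa differed by 0.34, mostly at P15 (0.58, against 0.11 at P90), and Stc1, an inhibitor of these proteases, by 0.41 (0.38 at P15).

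Downstream of the receptor, the substrates Irs1 and Irs2 differed by 0.19 ± 0.05 and 0.21 ± 0.07 (0.24 and 0.27 at P15), and Irs1 did not overlap at either stage. The insulin receptor Insr differed by 0.15 (0.06 at P15) and its relative Insrr by -0.21 (-0.17 at P15). Binding proteins showed no common direction, at 0.22 for Igfbp3 (0.08 at P15), -0.18 for Igfbp5 (-0.38 at P15, 0.01 at P90) and -0.05 for Igfbp6. Igfals stabilises the complex of IGF1 with its binding protein and had a mean difference of -0.10. It was lower at P15 (-0.34) and higher at P90 (0.13), without overlap at either stage. Igfbp5 and Igfals thus differed in sign between the stages, and their means are not shared effects. Socs2, a growth hormone target that restrains growth hormone signalling, differed by 0.28 ± 0.07 (0.15 at P15, 0.41 at P90) without overlap (adjusted p 0.0457 in the fit of all 18 arrays). Of the 13 measured growth hormone genes, Socs2 included, 9 were of differing sign at the 2 stages, beside 9090 of all 19106 genes. FoxO target genes had a median of 0.06, with 12 of 24 higher and 5 lower at both stages, beside 29.8% and 22.6% of all genes.

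Genes near Igf1 on chromosome 10 were looked at separately, since in a mixed background the DNA beside a targeted gene can differ in strain between genotypes. Of the 50 genes on each side, 100 in all, 15 had an unadjusted p under 0.05 with the same sign at both stages (15%), beside 10.1% of all genes, and Spic had the smallest p. The part of flanking DNA in the Spic value was not tested.

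Inner ear lists differed in how far they leaned towards null arrays, and none of their members passed adjustment in the additive model. Over all genes tested, 29.8% were higher at both stages and 22.6% lower. Genes of dark cells and endolymph had a median of 0.08 (0.03 at P15), with 7 of 16 higher at both stages, 4 lower and 5 of differing sign, and ganglion neuron genes one of 0.06 (0.11 at P15), with 10 of 20 higher and 2 lower. Otic fibrocytes, which line the labyrinth and recycle potassium, had 7 of 10 measured genes higher at both stages and 1 lower, with a median of 0.35 (0.21 at P15, 0.43 at P90, and -0.05 at E18.5). Coch encodes cochlin, an abundant protein of their extracellular matrix. It read 7.98, 7.82 and 7.88 in P15 null arrays, against 7.56, 7.59 and 7.63 in P15 wild type arrays, and 8.39, 8.39 and 8.15 in P90 null arrays, against 7.94, 7.84 and 7.77 in P90 wild type arrays. There was no overlap at either stage, and the difference was 0.38 ± 0.06 (adjusted p 0.0735, and 0.0211 in the fit of all 18 arrays). Otos encodes otospiralin, a small secreted fibrocyte protein, and read 5.14, 5.19 and 5.15 in P15 null arrays, against 4.77, 4.83 and 4.89 in P15 wild type arrays. At P90 Otos read 5.22, 5.18 and 4.92 in null arrays, against 4.75, 4.61 and 4.59 in wild type arrays. It was separate at both stages, differing by 0.39 ± 0.06 (adjusted p 0.0632). Otor, an otic matrix protein of the melanoma inhibitory activity family, differed by 0.54 ± 0.13 (0.54 at P15), and its groups overlapped at P90.

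Of 33 hair cell genes, 22 were higher at both stages, 4 lower and 7 of differing sign, with a median of 0.16 (0.11 at P15). The shares of all genes were 29.8% higher at both stages and 22.6% lower. At an unadjusted p under 0.05, 11 were higher and 2 lower, beside 5.57% and 4.55% of all genes. Ptprq, a phosphatase of the hair bundle, read 5.90, 5.92 and 5.92 in P15 null arrays, against 5.14, 5.70 and 5.24 in P15 wild type arrays. At P90 Ptprq read 5.99, 6.13 and 5.61 in null arrays, against 5.44, 5.33 and 4.92 in wild type arrays. The groups did not overlap, at a difference of 0.61 ± 0.12 (0.55 at P15). Ptprq was the 1 hair cell gene of 33 that passed in the fit of all 18 arrays (adjusted p 0.0281), beside 0.403% of all genes higher. Ocm, a calcium buffer of striolar and outer hair cells, differed by 0.46, at 0.18 at P15, where the groups overlapped, and 0.73 at P90. Myo15, the myosin that lengthens stereocilia, differed by 0.27 (0.23 at P15). Supporting cell genes had a median of 0.13 (0.13 at P15), with 17 of 21 higher at both stages and 2 lower.

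Genes of the otoconia and of the acellular membranes were higher at both stages in 13 of 18 cases and lower in 1. The shares of all genes were 29.8% and 22.6%. The list's median was 0.18 (0.11 at P15), and 0.12 with the sex score as a covariate. Otog, which encodes otogelin of those membranes, differed by 0.52 ± 0.11 (0.49 at P15), its relative Otogl by 0.57 ± 0.13 (0.22 at P15), and Nox3, the oxidase needed to form otoconia, by 0.53 ± 0.13 (0.43 at P15). Otogl was the 1 gene of this list that passed in the fit of all 18 arrays (adjusted p 0.0261), beside 0.403% of all genes higher. Its groups overlapped at P15. The melanocyte gene Dct, dopachrome tautomerase, read 5.83, 5.76 and 5.64 in P15 null arrays, against 5.04, 5.32 and 5.29 in P15 wild type arrays, and 5.91, 6.0 and 5.27 in P90 null arrays, against 4.96, 4.93 and 5.24 in P90 wild type arrays. Its difference was 0.60 ± 0.12 (0.52 at P15). Of 11 melanocyte genes, 7 were higher at both stages and 0 lower, beside 29.8% and 22.6% of all genes. Since the values are relative to the other genes of an array, a smaller share of RNA from blood cells or muscle and a larger share from the ear cannot be told apart.

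Leading higher genes outside these lists were Thsd4, a microfibril-associated matrix protein (0.39 ± 0.06), Gas2, a growth-arrest gene that links actin and microtubules (0.44 ± 0.07), the ligand Wnt2b (0.41 ± 0.07), the cartilage cytokine Cytl1 (0.66 ± 0.12) and the predicted gene Gm12474 (0.38 ± 0.07). None of the 5 overlapped between genotypes at either stage, which is no further support, since small p in these same arrays picked them. At E18.5 their differences lay between -0.07 and 0.04. Gas2 read 5.37, 5.49 and 5.26 in P15 null arrays, against 4.92, 5.11 and 4.98 in P15 wild type arrays, and 5.66, 5.72 and 5.42 in P90 null arrays, against 5.18, 5.10 and 4.98 in P90 wild type arrays. Cytl1 read 5.72, 5.61 and 5.78 in P15 null arrays, against 4.96, 5.07 and 5.39 in P15 wild type arrays, and 6.98, 7.0 and 6.39 in P90 null arrays, against 6.07, 5.85 and 6.15 in P90 wild type arrays. Among cartilage genes 14 of 21 were higher at both stages and 2 lower, beside 29.8% and 22.6% of all genes. Their median was 0.20 (0.15 at P15), and Chad, chondroadherin, differed by 0.48 ± 0.12 (0.27 at P15).

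**Figure D5:**
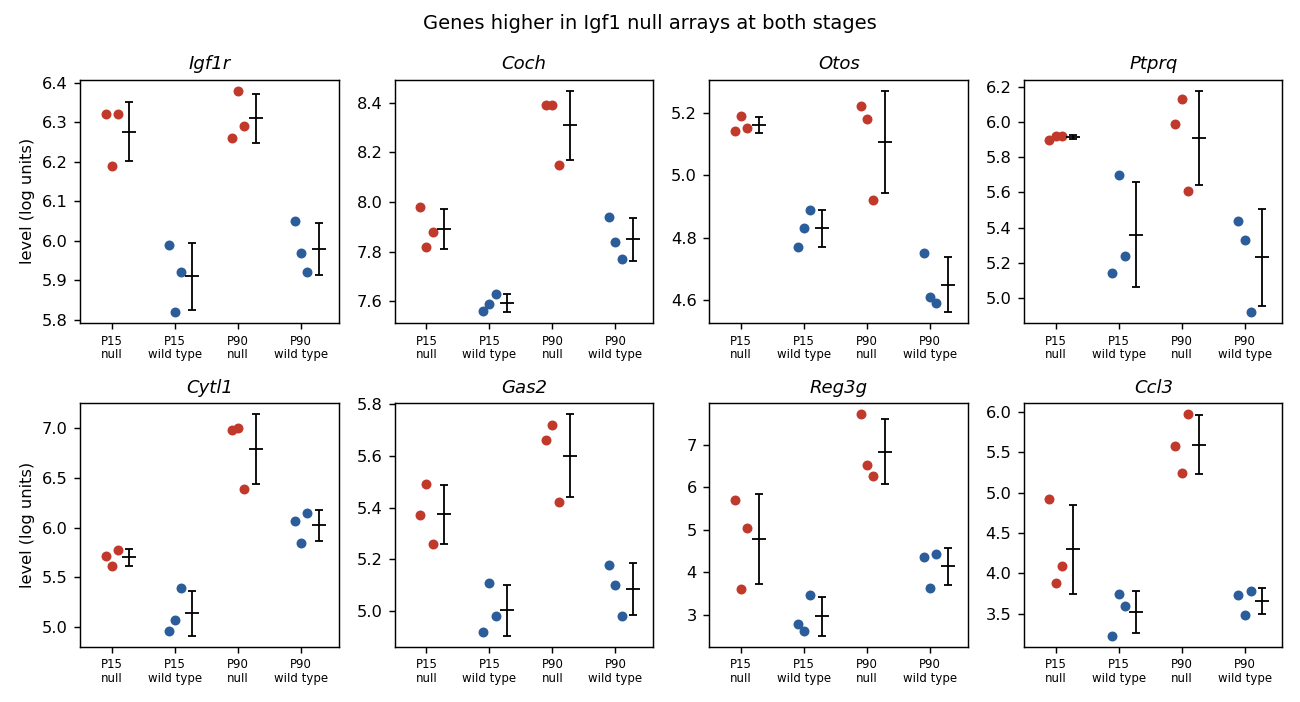
Levels of 8 genes higher in Igf1 null arrays at both stages, in log units (y axis), by group (x axis, null in red and wild type in blue). Points are arrays, and the black bar and whiskers are the group mean and SD (n = 3). For none of the 8 do null and wild type arrays overlap at P15 or at P90, and Reg3g and Ccl3 spread most among null arrays. The 8 were picked by small p in these same arrays, which favours lack of overlap.

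Among the 10 higher genes with the smallest p, those with the widest differences were Reg3g and Ccl3. Reg3g, an antimicrobial lectin of mucosal epithelia, read 5.69, 3.61 and 5.03 in P15 null arrays, against 2.78, 2.62 and 3.47 in P15 wild type arrays. At P90 Reg3g read 7.71, 6.53 and 6.27 in null arrays, against 4.36, 3.63 and 4.42 in wild type arrays. The groups did not overlap, though the null arrays of P15 spread over more than the gap and the P15 wild type mean, 2.96, was below the dim level, and the difference was 2.26 ± 0.36 (adjusted p 0.0632, and 0.00737 in the fit of all 18 arrays). Ccl3, a macrophage chemokine, read 4.92, 3.88 and 4.09 in P15 null arrays, against 3.23, 3.74 and 3.6 in P15 wild type arrays, and 5.58, 5.24 and 5.97 in P90 null arrays, against 3.73, 3.48 and 3.78 in P90 wild type arrays. It differed by 1.35 ± 0.24, more at P90 (1.93) than at P15 (0.77), with an unadjusted interaction p of 0.0082 in limma that did not pass adjustment.

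The list of activated and lipid-laden macrophage genes was higher at both stages in 18 of 24 cases and lower in 0. The shares of all genes were 29.8% and 22.6%. The list's median was 0.25 (0.13 at P15, 0.38 at P90). In the fit of all 18 arrays 6 genes passed, beside 0.403% of all genes. Only 2 of the 24 were without overlap at both stages, beside 1.04% of all genes. The list leaned more at P90, where genotype and the sex signal cannot be told apart, and its median with the sex score as a covariate was 0.21. Saa3, an acute phase protein, differed by 1.36 ± 0.29 (0.52 at P15, 2.20 at P90). Its means at P15 (3.21 null, 2.68 wild type) and in P90 wild type arrays (2.54) were below the dim level of 3.39. The complement genes Cfb, a factor of the alternative pathway, and C3ar1, the C3a receptor, differed by 0.75 ± 0.17 (0.42 at P15) and 0.54 ± 0.12 (0.28 at P15). Sftpd, a surfactant collectin, differed by 0.86 ± 0.18 (0.52 at P15, with overlap) and Cxcl17, a mucosal chemokine, by 0.71 ± 0.16 (0.54 at P15). The Sftpd means at P15 (3.16 null, 2.64 wild type) and in P90 wild type arrays (3.06) were also below the dim level. Secretory epithelium genes as a list had 9 of 22 higher at both stages, 2 lower and 11 of differing sign, beside the same shares of all genes. The middle ear mucosa is not named in the labels, and its part in these values was not tested.

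No gene passed the interaction between genotype and stage (0%, smallest adjusted p 0.161, limma), and 1289 had an unadjusted p under 0.05 (6.75%). The smallest p values were those of Mmp12, a macrophage elastase, 1700006A11Rik, Clec4n, a C-type lectin of myeloid cells, Ubxn11 and Olfr768. Mmp12 shows what a difference of a single stage looks like. It read 4.24, 3.75 and 3.6 in P15 null arrays, against 4.11, 3.30 and 3.82 in P15 wild type arrays, and 6.28, 6.10 and 6.08 in P90 null arrays, against 3.86, 3.80 and 4.05 in P90 wild type arrays. Its difference was 0.12 at P15 and 2.25 at P90, so it had the same sign at both stages but was separate at P90 only. Without P90 wild type replicate 3 the interaction was called in 121 genes, and without P15 wild type replicate 2 in 1.

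At E18.5 alone, 17 genes passed an adjusted p of 0.05 (0.089%), and 3747 did not overlap between genotypes (19.6%). The E18.5 differences of several leading genes were small. Spib differed by 0.12 at E18.5, Pou2af1 by -0.02, Cd79b by 0.09, Coch by -0.04 and Otos by 0.01. Spib averaged 2.68 in null and 2.55 in wild type arrays at E18.5, below the dim level of 3.39. The B cell list averaged 3.33 to 3.45 over the E18.5 arrays, against 4.92 to 5.42 over the P15 arrays. At levels this low a difference would be hard to see, so these values do not show when it arose. Of the 77 genes higher in the fit of all 18 arrays, 27 were also higher at E18.5 (35.1%), beside 31.8% of all genes higher at both postnatal stages, and of the 34 lower genes 11 were also lower (32.4%), beside 41.1%. The contrast of the postnatal mean difference with the E18.5 difference called 25 genes higher and 74 lower. Among those named above it was -0.90 for Spib (adjusted p 0.0173) and -0.78 for Cd79b (adjusted p 0.0345), while for Pou2af1 (-0.60, adjusted p 0.107) and Coch (0.42, adjusted p 0.112) it did not pass. Leaving out single arrays moved the total of 99 widely, to 17 without E18.5 null replicate 2 or without E18.5 wild type replicate 1 and to 743 without E18.5 null replicate 1.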

How the data were processed

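Vestibular organ RNA of Igf1 -/- and Igf1 +/+ mice was read on 18 arrays. The file the authors deposited holds log values of 28853 probe sets. They are most likely on a natural log scale, since the highest value deposited, 10.03, would be an intensity of 22700 with base e and 1050 with base 2. The base, summarization and background correction were not stated in what was used here, so differences are in log units. Array medians as deposited ran from 3.88 to 4.82, and the arrays were quantile normalized. Array number limits the precision.

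Of 23410 annotated probe sets, 21789 had 1 symbol, and 21698 matched RefSeq of GRCm38.p6. The probe set with the highest mean stood for each of 19938 genes, and 748 on X or Y and 84 with no chromosome were left out of the tests. The deposited log values, after quantile normalization, were tested with limma 3.58.1 in R 4.3.3 (additive model of stage and genotype, 9 residual degrees of freedom, Benjamini-Hochberg over 19106 genes, threshold 0.05), checked on simulated data. No scan date or batch was used. Genes whose highest group mean lay below 3.39 were called dim (19.4%). This is the highest value of 3 Y-linked genes in the arrays with least Y-linked signal, P15 null replicate 2 and P90 null replicate 1. It is that of Kdm5d in the former, and in the latter the 3 genes read 1.75 to 2.18. The dim level is thus a working level and not a measured background.

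Named genes were Igf1 and the IGF system, the 10 with the smallest p in each direction and the 5 with the smallest interaction p. Of each of 38 lists (697 of 765 genes measured), the 3 members with the smallest p in the main fit were added. Genes picked in this way are extremes and not typical members of their lists. Pax5, Rag1, Igll1, Vpreb3, Fcrla, Cd79a, Ccr3, Siglecf, Gpnmb, Myl2 and the genes of the closing observations were chosen after their values were seen. Members, lists and rules were chosen with earlier results of these data known. Same-numbered null and wild type arrays did not deviate together (r from -0.183 to 0.254), so numbers were not used as pairs.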

Additional observations from a re-analysis of the deposited data

Results flagged for a closer look

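Differences between null and wild type arrays that changed between E18.5 and the postnatal stages, by an adjusted p under 0.05 for the contrast of the postnatal mean difference minus the E18.5 difference in limma, were found in 25 genes in the higher direction and 74 in the lower. Among the named genes of the B lineage, the contrast was -0.90 for Spib, -0.78 for Cd79b and -1.12 for Fcrla. It was -0.60 for the macrophage gene Timd4 and -0.71 for the eosinophil gene Siglecf. Part of it comes from E18.5 for Fcrla and Siglecf, which were higher in null arrays there by 0.51 and 0.38, without overlap. Their postnatal mean differences were -0.61 and -0.33. Spib and Fcrla were below the dim level in both genotypes at E18.5. In the muscle genes it was -1.32 for Yipf7, -1.46 for Casq1, -1.23 for Myoz1, -1.59 for Actn3 and -1.54 for Myl2, a regulatory light chain of slow and cardiac muscle myosin. In the list of 24 activated and lipid-laden macrophage genes, 4 were called higher in this contrast, beside 0.131% of all genes. Single myeloid genes called higher were Ccl3 (1.47), Mmp12 (1.12), Clec4n (1.27) and Gpnmb (1.19), a lysosomal membrane glycoprotein gene picked after its values were seen. Clec4n differed by -0.39 at E18.5, without overlap. Igfbp6, an IGF binding protein that prefers IGF2, had a contrast of -0.44, with a postnatal mean difference of -0.05 and an E18.5 difference of 0.39. For Mmp12, Clec4n and Gpnmb the postnatal mean rests mostly on P90, where their differences were 2.25, 1.58 and 1.84, against 0.12, 0.18 and 0.07 at P15.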

How the results depend on the processing

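The counts of genes called with the same sign at both stages were 0 higher and 1 lower as reported. They were 2 and 7 with array medians subtracted, 14 and 5 with values as deposited, 16 and 12 with group means on the 12 arrays, 77 and 34 with group means on all 18 arrays, 6 and 10 with dim genes left out, 8 and 12 with trend and robust set in eBayes, and 14 and 15 with array weights. With the sex score as a covariate and with the replicate block the lower count was 0 (Spib adjusted p 0.174 and 0.131) and the higher count was 0. Quantile normalization of the 12 postnatal arrays and the mean of all probe sets left both counts as they were. Leaving out each array in turn gave 0 to 9 higher and 1 to 4 lower genes, with 9 and 4 without P15 null replicate 2, and 2 and 3 lower without P15 null replicate 1 and P90 null replicate 2. The interaction count was 0 as reported, with either other scaling, with dim genes left out, with the sex score and with the replicate block, and 0 to 121 when 1 array was left out, at 121 without P90 wild type replicate 3 and 1 without P15 wild type replicate 2. The contrast with E18.5 called 99 genes as reported, 0 with values as deposited, 16 with the sex score as a covariate, 50 with the replicate block, and 17 to 743 when 1 array was left out. It was 743 and 17 without E18.5 null replicates 1 and 2, 17 and 44 without E18.5 wild type replicates 1 and 3, 59 and 51 without P15 null replicates 2 and 3, 61 without P15 wild type replicate 1, 59 without P90 null replicate 1, and 55, 57 and 669 without P90 wild type replicates 1, 2 and 3. The causes were not tested. Of the named genes, 2 reversed, both with values as deposited, where Igfbp6 was at 0 and Igfals at 0.03. In the values as deposited the median of all genes was 0.082, against 0.012 as reported. Genes below the dim level may have little signal over background, and 3 arrays a group limit what a test over 19106 genes can call.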

Other observations

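Hormone genes of the anterior pituitary varied widely between postnatal arrays and differed by large amounts without passing a test. Gh, growth hormone, read 8.28, 8.22 and 5.73 in P15 null arrays, against 5.93, 4.31 and 4.01 in P15 wild type arrays, and 9.03, 8.42 and 4.89 in P90 null arrays, against 7.69, 6.25 and 4.87 in P90 wild type arrays. Its difference was 1.92 ± 0.77 (adjusted p 0.403, limma), and the groups overlapped at both stages. Cga, the alpha subunit of the glycoprotein hormones, differed by 1.85 ± 0.74 and read 7.94, 5.45 and 3.38 in P90 null arrays, against 5.47, 4.19 and 3.30 in P90 wild type arrays, so that the P90 array highest in Gh was highest in Cga. Prl, prolactin, and Pomc, the precursor of corticotropin, differed by 1.36 ± 0.70 and 0.98 ± 0.40. At E18.5 Gh lay between 4.09 and 4.86 in both genotypes.

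Ttr, the thyroxine carrier of choroid plexus and liver, read 5.48, 6.47 and 5.05 in P15 null arrays, against 8.20, 7.76 and 8.39 in P15 wild type arrays, and 8.73, 8.07 and 7.63 in P90 null arrays, against 8.33, 5.82 and 6.84 in P90 wild type arrays. The difference was -2.45 at P15 and 1.15 at P90, with opposite signs, and the interaction did not pass adjustment. Trim12a, a gene of the Trim5 cluster on chromosome 7, read 5.01, 3.47 and 5.33 in P15 null arrays, against 2.41, 2.69 and 2.71 in P15 wild type arrays. At P90 it read 1.85, 4.40 and 4.10 in null arrays and 1.99, 3.15 and 4.13 in wild type arrays, with overlap between the genotypes, and at E18.5 it ran from 1.34 to 4.24 in null arrays and from 2.02 to 4.65 in wild type arrays.

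Genes of motile cilia showed the reverse of a shared effect, with 17 of 19 of differing sign at the 2 stages, beside 9090 of all 19106 genes. Their medians were -0.14 at P15 and 0.32 at P90. Adipocyte genes were alike in this, at 16 of 19 of differing sign with medians of -0.28 and 0.24.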
